A study of Homo sapiens with 6 samples.

Results

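Kinesins and dyneins are the proteins that walk along microtubules, and this account covers their genes in Saos-2 cells exposed to ailanthone. Members were taken by symbol from the deposited expression table: names that start with KIF followed by a number or by C, or with DYNC, DYNL, KLC or DCTN. Of 13439 listed genes, 55 matched, and the 51 with a mean of at least 1 CPM (reads scaled by TMM to library size) over the 6 libraries were kept. They comprised 12 mitotic kinesins, 31 transport motor genes (13 transport kinesins, 3 kinesin light chains, 4 subunits of cytoplasmic dynein 1, 5 dynein light chains and 6 dynactin subunits) and 8 others (6 kinesins and 2 dynein 2 genes). The lowest member was KIF26B, with a mean of 1.14 CPM, and the first gene below the minimum was KLC3, at 0.370 CPM. KIF17, KIF21B and KIF4B were the other genes left out, at 0.117, 0.0950 and 0.107 CPM.

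Saos-2 is an established human osteosarcoma line. Cells of 1 group received 0.20 µM AIL (ailanthone, a quassinoid of the tree Ailanthus altissima; per the labels, its IC50) and those of the other received the solvent DMSO, for 24 h in both, with 3 libraries each. The comparison therefore rests on 1 line, 1 dose and 1 time, and the design asked which pathways the compound altered. TMM-scaled depth, read from the step that 1 read adds, was 32540000 to 35830000 reads in the DMSO libraries and 35910000 to 38050000 in the AIL libraries. Among osteoblast markers, RUNX2 was at 4.66 CPM under DMSO, while SPP1, BGLAP and SPARC were below 1 CPM, at 0.223, 0.0100 and 0.173 CPM; other markers of this lineage are not reported here. Of 16 epithelial, haematopoietic and endothelial markers, only ELF3, CDH5 and VWF were among the listed genes. Each had a mean below 1 CPM in both groups. The remaining markers, including every haematopoietic one, have no listed value, so their level is not known.

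A kinesin holds a motor domain that splits ATP and steps along a microtubule, most often towards its plus end. Some kinesins act mainly in cell division, where they build, focus or shorten the spindle and help to complete cytokinesis, and their genes are transcribed mostly in late S, G2 and M phase. Others carry vesicles, organelles and RNA in cells at any stage. Cytoplasmic dynein 1 moves towards minus ends as a complex of heavy, intermediate, light intermediate and light chains, and needs the dynactin complex and an adaptor for sustained movement. Dynein 2 returns cargo from the tip of the cilium.

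The mitotic kinesins fell together and the transport machinery did not follow them. All 12 mitotic kinesins were lower under AIL, by 16.9 to 29.9% of the DMSO mean, whereas 14 of the 31 transport motor genes rose and 8 fell. Of dynein and dynactin genes, 11 of 17 rose and 3 fell. Calls are from limma on log2(CPM + 1), at an adjusted p under 0.05 across 11069 tested genes, of which 54.1% were called, 28.2% higher and 25.9% lower. Among all 51 members 19 were higher, 21 lower and 11 not called. The mitotic list leaves out KIF2A, the kinesin-13 closest to KIF2C, which was counted among the others. KIF2A was not called (log2 difference -0.04, limma adjusted p = 0.298). The range of the 6 libraries did not overlap between groups for 40 of the 51, beside 60.1% of all tested genes. The 19 and the 40 include KIF26B, which reached the minimum of 1 CPM only through the AIL libraries.

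**Figure D1:**
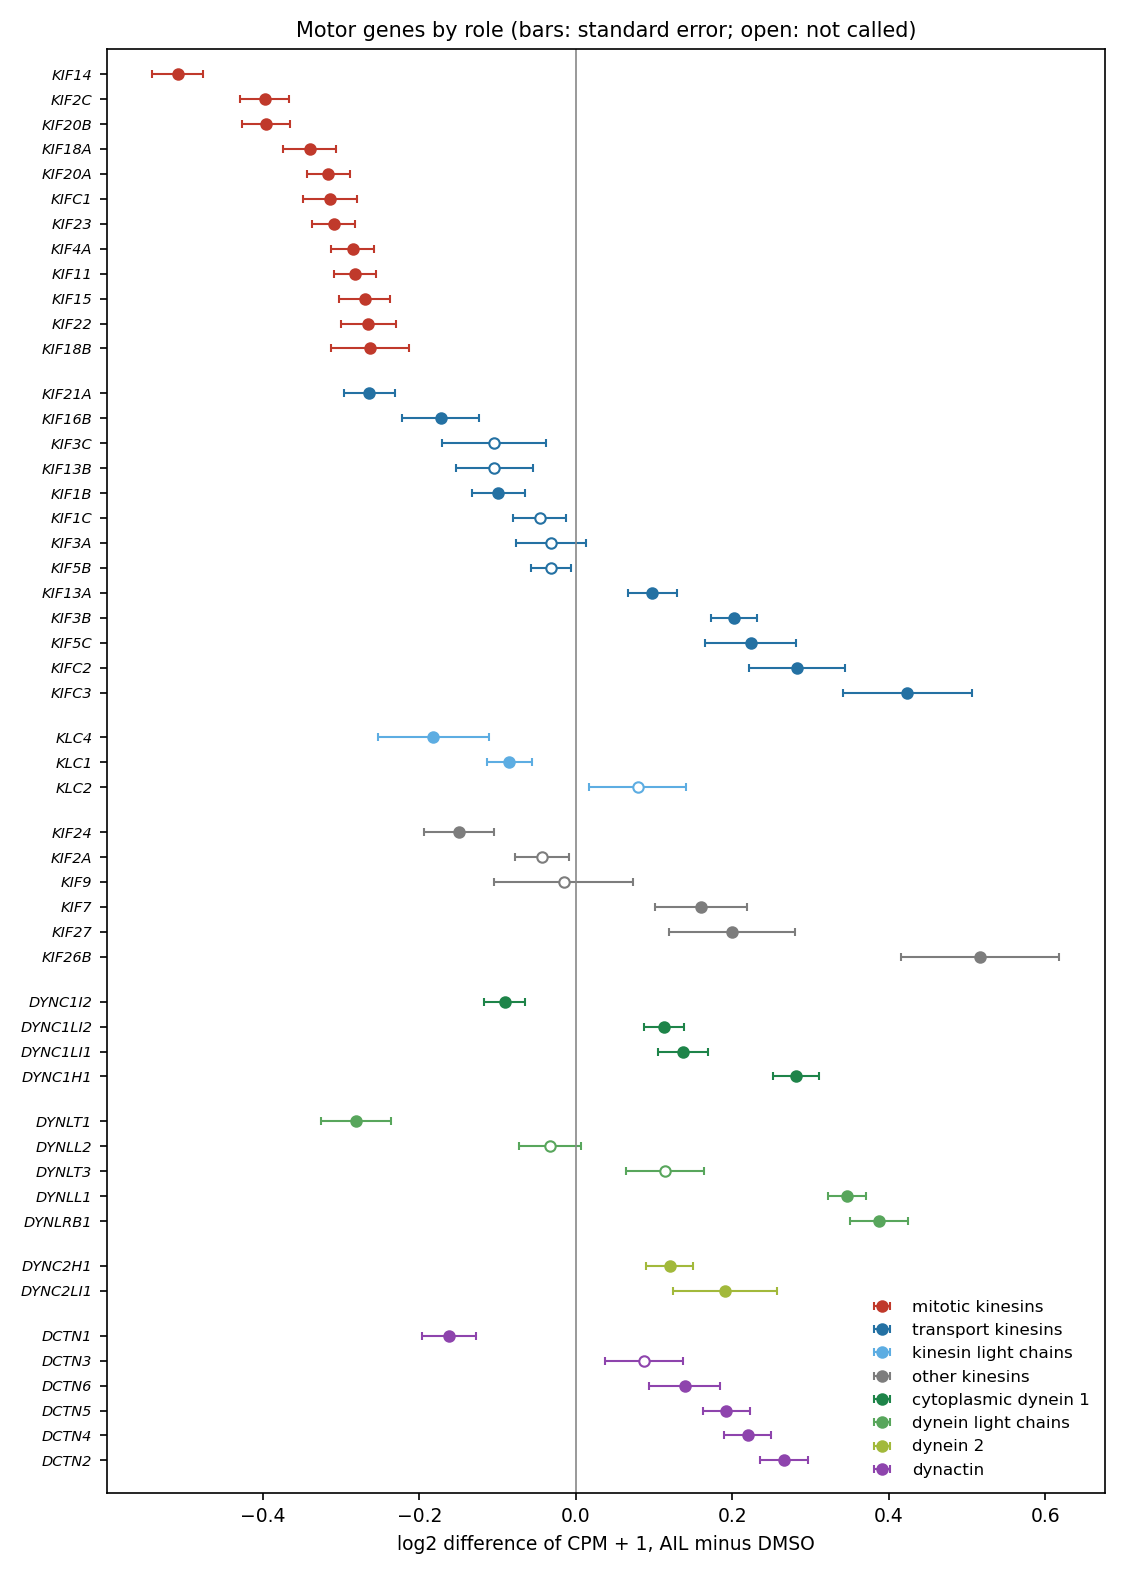
Log2 difference of CPM + 1 (AIL minus DMSO, horizontal axis) for the 51 motor genes, by role; bars are the limma standard error and open circles did not pass an adjusted p of 0.05. The 12 mitotic kinesins lie between -0.51 and -0.26, and most dynein and dynactin genes lie to the right of 0.

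Promoters of the mitotic kinesins are shown first, because these genes moved together and many share a pair of short elements. The CHR (cell cycle genes homology region) is bound by MuvB complexes, which hold mitotic genes off in resting cells and help to switch them on in G2, and the CCAAT box is bound by NF-Y. RefSeq promoters (GRCh38.p14, 250 bases before to 50 after the annotated start) were matched for 42 of the 51 members, including all 12 mitotic kinesins. They were searched on both strands for TTTGAA as the CHR and for CCAAT, and matches of these motifs can share at most 1 base. TTTGAA occurred in 9 of 12 mitotic kinesin promoters (75.0%), in 1 of 24 of the transport motors (4.17%; KIF5B) and in 15.4% of 27305 promoters. CCAAT occurred in 10 of 12, 8 of 24 and 35.7%, respectively. A CHR that began within 50 bases downstream of the start of a CCAAT box was present in 7 of 12 mitotic kinesins, 0 of 24 transport motors and 1.43% of all promoters.

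These 7 promoters are printed below from 100 bases before to 30 after the start, on the strand of the gene, with both elements in capitals (TTCAAA and ATTGG are the matches on the opposite strand). DYNC1H1, the heavy chain of cytoplasmic dynein 1, is added as a motor gene that rose and has neither element in its window. Genes that fell can lack both as well, as do KIF2C, KIF21A and DYNLT1. Whether the elements go with the direction of change was not tested. The windows are chr1:200620722-200620851 (minus strand) for KIF14, chr11:28108127-28108256 (minus) for KIF18A, chr6:33391723-33391852 (plus) for KIFC1, chr15:69414249-69414378 (plus) for KIF23, chrX:70290004-70290133 (plus) for KIF4A, chr10:92593030-92593159 (plus) for KIF11, chr17:44947744-44947873 (minus) for KIF18B and chr14:101964473-101964602 (plus) for DYNC1H1.
KIF14: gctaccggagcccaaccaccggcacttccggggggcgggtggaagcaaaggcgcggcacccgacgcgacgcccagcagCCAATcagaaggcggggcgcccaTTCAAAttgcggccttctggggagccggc
KIF18A: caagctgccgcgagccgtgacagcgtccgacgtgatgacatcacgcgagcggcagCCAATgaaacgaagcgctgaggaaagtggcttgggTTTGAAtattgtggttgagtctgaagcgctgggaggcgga
KIFC1: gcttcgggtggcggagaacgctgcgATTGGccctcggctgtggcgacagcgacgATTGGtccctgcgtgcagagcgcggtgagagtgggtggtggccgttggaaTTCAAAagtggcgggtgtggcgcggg
KIF23: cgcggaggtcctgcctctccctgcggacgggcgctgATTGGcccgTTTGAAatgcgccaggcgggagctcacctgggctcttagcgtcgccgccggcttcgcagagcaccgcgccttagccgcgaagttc
KIF4A: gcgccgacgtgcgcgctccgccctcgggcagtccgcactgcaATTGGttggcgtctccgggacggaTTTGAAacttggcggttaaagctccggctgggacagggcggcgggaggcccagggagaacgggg
KIF11: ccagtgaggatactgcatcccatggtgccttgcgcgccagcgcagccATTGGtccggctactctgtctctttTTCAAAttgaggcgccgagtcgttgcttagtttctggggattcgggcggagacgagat
KIF18B: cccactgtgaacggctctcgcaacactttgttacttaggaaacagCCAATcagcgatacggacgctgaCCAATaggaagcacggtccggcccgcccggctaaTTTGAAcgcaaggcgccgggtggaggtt
DYNC1H1: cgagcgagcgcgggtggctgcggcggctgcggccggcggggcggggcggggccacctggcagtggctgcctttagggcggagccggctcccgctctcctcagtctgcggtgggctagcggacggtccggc

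From the start of the nearest CCAAT box to the start of the CHR there were 24 bases in KIF4A, 25 in KIF11 and 23 in KIF14. The distance was 34 bases in KIF18B, 35 in KIF18A, 50 in KIFC1 and 9 in KIF23. KIF20B carried both elements farther apart, KIF15 only a CHR, KIF20A and KIF22 only a CCAAT box, and KIF2C neither. A match is a run of letters and no evidence of binding.

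**Figure D2:**
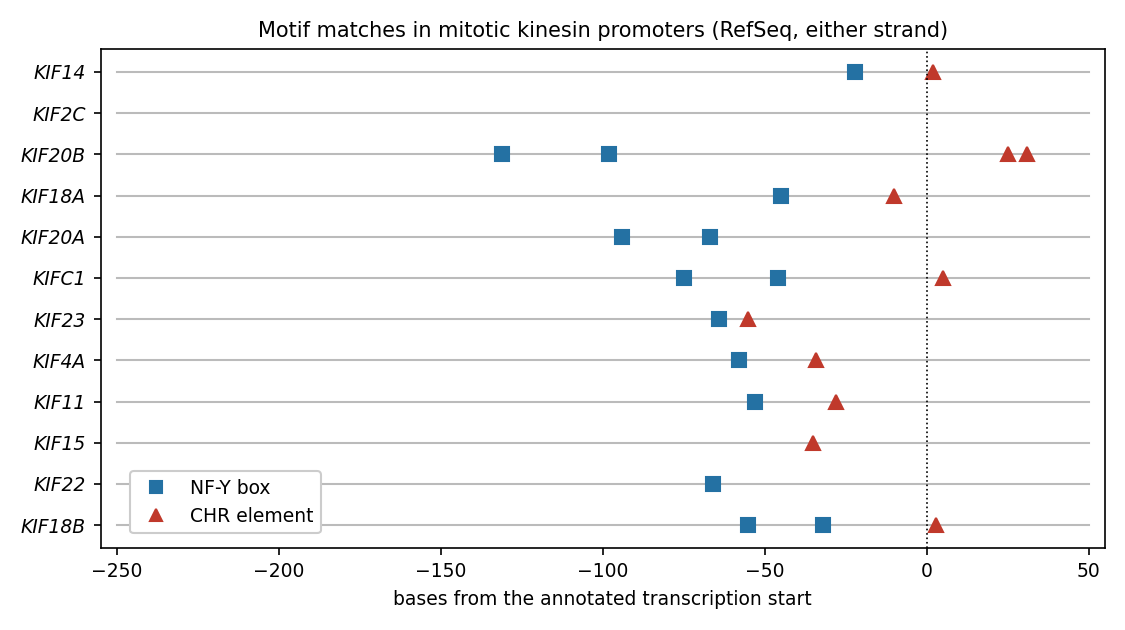
Position of CHR (triangles) and NF-Y (squares) motif matches on either strand in the promoters of the 12 mitotic kinesins, in bases from the annotated start; genes are ordered from the lowest log2 difference (top). In 8 of the 12 both motifs occur, and every CHR there lies downstream of a CCAAT box.

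The 4 mitotic kinesins with the largest differences were KIF14, KIF2C, KIF20B and KIF18A. KIF14, which binds citron kinase and PRC1 at the midbody, stood at 167, 165 and 178 CPM in the DMSO libraries and at 119, 116 and 122 CPM under AIL. It fell by 29.9% (log2 difference -0.51, SE 0.0328, limma adjusted p = 1.28e-09), the lowest value in the family. KIF2C (MCAK), a kinesin-13 that strips tubulin from microtubule ends to correct attachments, was at 149, 147 and 147 CPM, and at 116, 107 and 113 CPM under AIL. The groups lay far apart relative to their spread (148 ± 1.19 and 112 ± 4.65 CPM; SD, n = 3; log2 difference -0.40, limma adjusted p = 1.38e-08). KIF20B, required to finish cytokinesis, went from 196, 202 and 209 CPM to 150.57, 150.84 and 159.07 CPM (log2 difference -0.40, SE 0.0308). KIF18A, which damps chromosome oscillation at the plus ends of kinetochore fibres, went from 114, 112 and 119.5 CPM to 88.9, 89.0 and 94.8 CPM (log2 difference -0.34, SE 0.0338). In each of these 4 genes the highest AIL library was below the lowest DMSO library.

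The other 8 mitotic kinesins fell by 16.9 to 19.8%. KIF11 (Eg5), the tetrameric kinesin-5 that pushes the poles apart, had 270.5 ± 7.39 CPM under DMSO and 222 ± 3.55 CPM under AIL (SD, n = 3; log2 difference -0.28, limma adjusted p = 1.45e-07). KIF15, which can back up KIF11, fell by 17.2% and KIFC1, the minus-end-directed motor that clusters poles, by 19.7%. At the midzone, KIF23 (MKLP1, of the centralspindlin complex) fell by 19.4%, KIF20A (MKLP2, which brings Aurora B to the midzone) by 19.8% and KIF4A, which shortens midzone microtubules with PRC1, by 18.1%. KIF22, a chromokinesin, and KIF18B, which trims astral microtubules, had the smallest falls, of 16.9 and 17.0%. Thus the 12 genes spanned log2 differences of -0.51 to -0.26, which placed them between the lowest 1.09 and 7.88% of all tested genes. For KIF4A, 14.3% of the 50-base words of its transcripts occur in another annotated gene, chiefly the intronless copy KIF4B (0.0600 to 0.170 CPM in the 6 libraries).

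**Figure D3:**
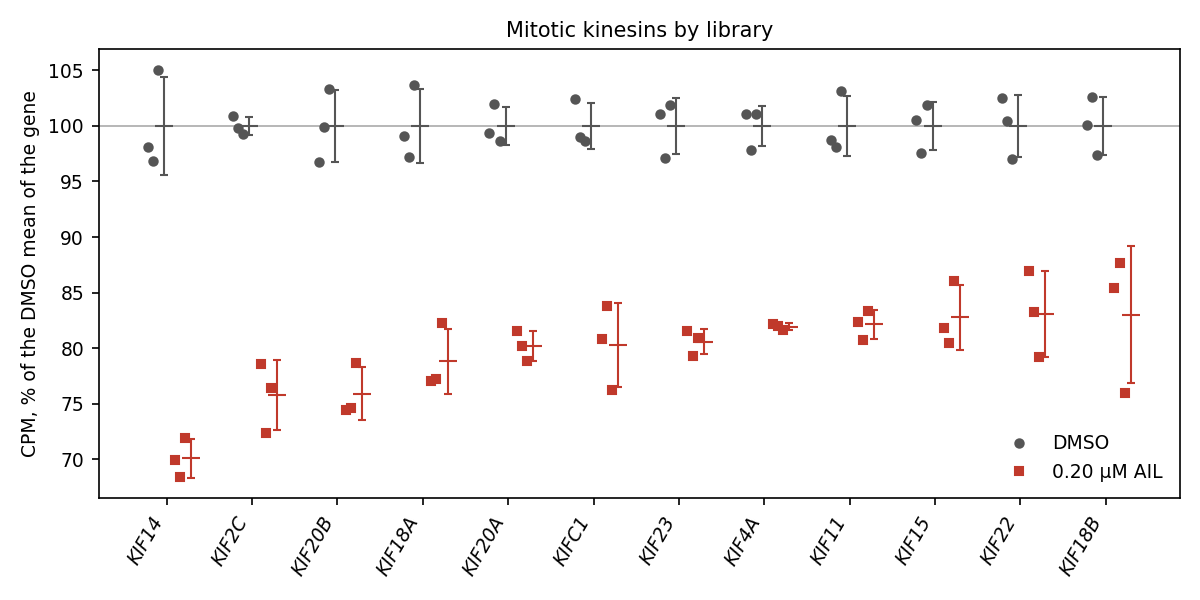
CPM of each mitotic kinesin in the 6 libraries, as a percent of the mean of its 3 DMSO libraries (circles, DMSO; squares, AIL; bars, mean ± SD of 3). No AIL value reaches the DMSO range in any of the 12 genes.

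Added up, the mitotic kinesins came to 1752, 1734 and 1783 CPM in the DMSO libraries and to 1399, 1374 and 1397 CPM under AIL. The transport motors came to 3761, 3810.1 and 3858 CPM and to 4097, 4110.1 and 4087 CPM. The ratio of the former sum to the latter, which does not depend on how libraries are scaled, was 0.461 ± 0.00547 under DMSO and 0.339 ± 0.00419 under AIL (SD, n = 3). Long and abundant transcripts weigh most in such sums, and DYNC1H1 alone made up 65.6% of the rise of the transport sum. Without it, an alternative chosen after seeing the data, the transport sum was 3.38% higher under AIL and the ratio was 0.599 ± 0.00754 and 0.459 ± 0.00340. The medians over genes pointed the same way, at -0.31 for mitotic kinesins and 0.09 for transport motors, beside 0.01 for all tested genes. The rise was not shared by all transport lists. Summed dynein 1, dynein light chains and dynactin rose by 14.7, 18.6 and 6.19%. Summed transport kinesins and kinesin light chains changed by -1.28 and -3.93%. Mitotic and transport genes were not fully apart, since 2 of 31 transport motor genes, DYNLT1 and KIF21A, had differences as low as those of mitotic kinesins.

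Genes that work with the mitotic motors were mostly lower too. Of 24 partners, 21 were lower, 0 higher and 3 not called (ZW10, NUMA1 and PLK1), with a median log2 difference of -0.26. The shares lower and higher were 87.5 and 0%, beside 25.9 and 28.2% of all tested genes. The smallest p-values belonged to ASPM (424 ± 11.4 to 291 ± 6.003 CPM), which focuses spindle poles, to TPX2 (311 ± 4.65 to 225 ± 2.10 CPM), which activates Aurora A, and to PRC1 (376 ± 4.97 to 271 ± 5.57 CPM), which bundles midzone microtubules. ANLN, an actin scaffold of the cleavage furrow, was next (357 ± 9.17 to 267 ± 9.03 CPM; SD, n = 3). CENPE is the kinesin-7 of the kinetochore and escapes the family's symbol; named here after its values were seen, it fell by 24.5%, from 222, 240.0 and 259 CPM to 182, 175 and 188 CPM.

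Of 12 genes listed as proliferation markers, 9 were lower, 0 higher and 3 not called (CDC20, LIN54 and LIN9). Among all tested genes 25.9% were lower and 28.2% higher. The summed level of the 12 was 2715 to 2813 CPM under DMSO and 2175 to 2258 CPM under AIL. The summed mitotic kinesins amounted to 0.637, 0.639 and 0.634 of that sum in the DMSO libraries and to 0.634, 0.632 and 0.619 under AIL. The groups overlapped by a hair, with DMSO replicate 3 at 0.6338 and AIL replicate 1 at 0.6339. Within same-numbered libraries, a pairing that no label states, the ratio was lower under AIL in 3 of 3 pairs, and no test was run on them. In bulk RNA, fewer cells in G2 and mitosis and less of these transcripts per cell cannot be told apart. Of 13 transcripts of the mitochondrial genome, taken as a sign of RNA quality, 10 were also lower in the AIL libraries (summed 4205 to 4374 CPM and 3600.5 to 3726 CPM, with MT-CYB, MT-ND3 and MT-ND4L not called). Their part in the fall of the mitotic kinesins was not tested.

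Among transport kinesins the changes went both ways, with 5 of 13 higher, 3 lower and 5 not called (median log2 difference -0.03). The shares higher and lower were 38.5 and 23.1%, beside 28.2 and 25.9% of all tested genes. The highest were the minus-end-directed C-kinesins. KIFC3, which acts at junctions and in Golgi positioning, had 4.85, 5.21 and 5.05 CPM under DMSO and 8.10, 7.02 and 6.27 CPM under AIL, a rise of 41.6% (log2 difference 0.42, SE 0.0827, limma adjusted p = 3.32e-04). KIFC2 went from 35.7, 38.3 and 31.7 CPM to 45.0, 45.0 and 39.0 CPM, and the lowest AIL library was only just above the highest DMSO library. In KIFC2, 15.8% of the 50-base words of its transcripts also occur in FOXH1, and how such reads were assigned is not given in the sources used here.

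The conventional kinesin-1 heavy chains differed from each other. KIF5B, the widely expressed heavy chain, had 570.4 ± 9.92 and 558 ± 14.2 CPM (SD, n = 3; log2 difference -0.03, limma adjusted p = 0.317), with overlapping groups. KIF5C, better known from neurons, rose from 11.9, 12.9 and 12.6 CPM to 15.6, 14.4 and 14.2 CPM (log2 difference 0.22, limma adjusted p = 0.00363). Of the light chains, which bind cargo, KLC1 was at 114, 112 and 111 CPM and at 107, 107 and 103 CPM under AIL, and 36.9% of its 50-base words lie in other annotated genes, chiefly XRCC3. KLC4 was at 7.13, 7.57 and 7.40 CPM and at 6.86, 6.39 and 5.90 CPM. Both passed the test by a small margin (limma adjusted p = 0.0197 and 0.0394), and lost the call in 5 and 6 of 14 alternatives (highest limma adjusted p = 0.0833 and 0.142). KLC2 did not pass, with 27.8 ± 2.17 and 29.5 ± 2.69 CPM.

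Kinesin-2, which enters cilia and carries late endosomes, also showed unlike subunits. KIF3B rose from 98.2 ± 1.43 to 113 ± 2.78 CPM (SD, n = 3; log2 difference 0.20, limma adjusted p = 1.96e-05), whereas its usual partner KIF3A was at 30.7 ± 1.62 and 29.99 ± 0.287 CPM (limma adjusted p = 0.565). The alternative partner KIF3C did not pass either, with 9.80 ± 0.384 and 9.05 ± 0.660 CPM. In the kinesin-3 group, KIF13A rose by 7.10% (call lost without DMSO replicate 1 or 2) and KIF16B, which carries early endosomes, fell by 11.5%. KIF1B fell by 6.72%, though its groups overlapped (107, 115 and 115 CPM, and 103, 103 and 108 CPM) and the call was lost in 6 of 14 alternatives (highest limma adjusted p = 0.0965). KIF1C and KIF13B did not pass, with log2 differences of -0.05 and -0.10. KIF21A, a kinesin-4 that pauses microtubule growth at the cell cortex, went from 86.7, 87.8 and 84.2 CPM to 71.0, 69.9 and 74.1 CPM (log2 difference -0.26, SE 0.0327, limma adjusted p = 3.04e-06), the lowest value among transport kinesins.

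The transcript of the dynein 1 heavy chain was higher. DYNC1H1, the heavy chain that holds the ATP-splitting ring, was at 849.9, 874 and 912 CPM under DMSO and at 1038, 1097 and 1067 CPM under AIL. It rose by 21.5% (log2 difference 0.28, SE 0.0291, limma adjusted p = 3.69e-07). With quantile normalization the log2 difference was 0.12 (limma adjusted p = 3.30e-04). The light intermediate chains, which link the motor to its adaptors, rose less, DYNC1LI1 by 10.1% (77.7, 75.3 and 77.4 to 84.8, 82.2 and 86.6 CPM) and DYNC1LI2 by 8.17% (283, 289 and 292 to 318, 306 and 310.1 CPM). DYNC1I2, the intermediate chain that binds dynactin, went the other way, from 176, 180.4 and 179 CPM to 170.0, 165 and 168 CPM (log2 difference -0.09, limma adjusted p = 0.00708, and 0.0933 with quantile normalization). Of its 50-base words, 18.4% are found in another annotated gene, DYNC1I2P1. For DYNC1LI2 the share is 19.3%, in AC018557.1.

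The dynein light chains went in both directions, with 2 of 5 higher, 1 lower and 2 not called, beside 28.2% higher and 25.9% lower of all tested genes. DYNLRB1 (roadblock) rose from 43.6, 42.4 and 45.0 CPM to 58.7, 55.7 and 57.9 CPM, by 31.5% (log2 difference 0.39, SE 0.0369, limma adjusted p = 1.39e-07). DYNLL1 (LC8), a hub that dimerises many proteins besides dynein, rose from 225, 229.9 and 228 CPM to 292, 288 and 289.7 CPM, by 27.3% (log2 difference 0.35, SE 0.0242, limma adjusted p = 3.42e-09). Its close relative DYNLL2 had 36.8 ± 0.418 and 35.9 ± 1.26 CPM (SD, n = 3; limma adjusted p = 0.500). DYNLT1 (Tctex-1) fell from 43.3, 39.9 and 41.0 CPM to 34.5, 32.0 and 35.2 CPM, by 18.1% (log2 difference -0.28, SE 0.0448, limma adjusted p = 4.71e-05). Its relative DYNLT3 was at 26.7 ± 0.830 and 29.02 ± 1.90 CPM and did not pass (limma adjusted p = 0.0625), though it did with the replicate number as a block (0.0476).

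Of the dynactin subunits, 4 of 6 rose and 1 fell, beside 28.2 and 25.9% of all tested genes. DCTN2 (dynamitin), which joins the arm of the complex to its filament, rose from 91.7, 93.8 and 97.0 CPM to 116, 114 and 111 CPM (log2 difference 0.27, SE 0.0308, limma adjusted p = 1.37e-06). The pointed-end subunits followed, DCTN4 (p62) from 83.2, 83.6 and 84.9 CPM to 97.0, 95.9 and 101 CPM and DCTN5 (p25) from 99.3, 96.9 and 98.7 CPM to 114, 109 and 114 CPM. DCTN6 (p27) rose by 10.6%, and its call was lost without DMSO replicate 1 or AIL replicate 3. Sequence held in common with other annotated genes made up 25.9% of the 50-base words of DCTN5 and 20.2% of those of DCTN6. DCTN1 (p150Glued), the large subunit that grips microtubules and dynein, fell from 188, 188 and 186 CPM to 173, 174 and 156 CPM (log2 difference -0.16, SE 0.0349, limma adjusted p = 7.76e-04), with AIL replicate 3 the lowest. The shoulder subunit DCTN3 did not pass, at 27.2 ± 1.51 and 28.9 ± 1.32 CPM.

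**Figure D4:**
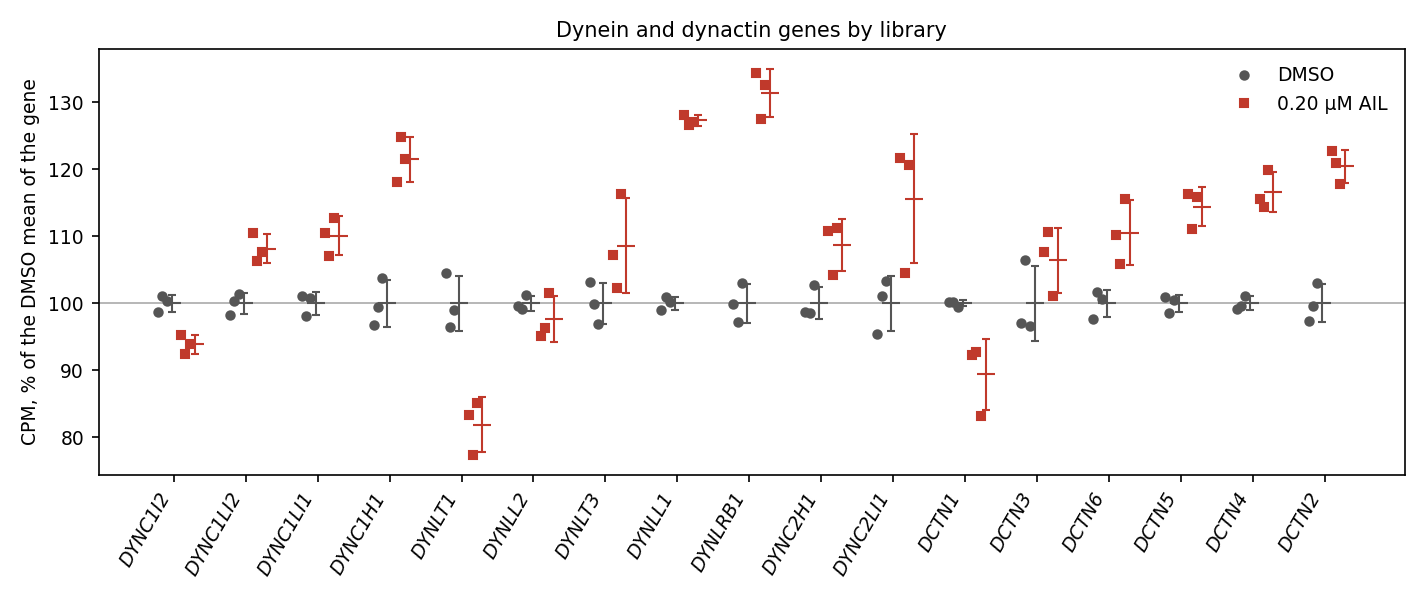
CPM of each dynein and dynactin gene in the 6 libraries, as a percent of the mean of its 3 DMSO libraries (circles, DMSO; squares, AIL; bars, mean ± SD of 3). DYNLT1, DCTN1 and DYNC1I2 lie below the DMSO range, while DYNC1H1, DYNLL1, DYNLRB1 and DCTN2 have means 20.5 to 31.5% above those of DMSO.

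Both dynein 2 genes rose, and of the 6 remaining kinesins 3 rose (KIF26B, described below, among them), 1 fell and 2 did not pass. Of all tested genes, 28.2% were higher and 25.9% lower, and sets this small cannot be set apart from those shares. DYNC2H1, its heavy chain, was at 194, 194 and 202 CPM and at 218, 205 and 218 CPM under AIL (log2 difference 0.12, limma adjusted p = 0.00265). DYNC2LI1 went from 10.2, 10.8 and 11.1 CPM to 13.01, 11.17 and 12.89 CPM (log2 difference 0.19, limma adjusted p = 0.0216), with AIL replicate 2 close to the DMSO libraries, and lost its call in 4 of 14 alternatives (highest limma adjusted p = 0.0989). Of the ciliary kinesins, KIF24, which shortens centriolar microtubules, fell from 23.6, 24.0 and 23.4 CPM to 21.1, 21.5 and 21.2 CPM. KIF7, a regulator of Hedgehog signalling, was at 19.5, 19.4 and 19.6 CPM and at 23.6, 22.6 and 19.7 CPM, so that AIL replicate 3 lay at the DMSO level. Its call was lost in 8 of 14 alternatives; without AIL replicate 1 its log2 difference of 0.16 became 0.11 (limma adjusted p = 0.0282 and 0.163). KIF27, a relative of KIF7, was at 3.69, 4.36 and 4.07 CPM and at 4.52, 4.92 and 4.90 CPM (limma adjusted p = 0.0451; call lost in 7 of 13 alternatives, with values up to 0.178), and 31.7% of its 50-base words are shared with other genes. KIF2A, the kinesin-13 closest to KIF2C, had 79.0 ± 1.07 and 76.7 ± 3.22 CPM (limma adjusted p = 0.298), and KIF9 4.08 ± 0.399 and 4.03 ± 0.422 CPM.

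KIF26B, which lacks ATPase activity and is linked to Wnt5a signalling, had 0.680, 0.760 and 0.840 CPM under DMSO and 1.52, 1.55 and 1.48 CPM under AIL. These values rest on 22 to 30 and 53 to 58 reads per library. The mean rose by 99.6% and the log2(CPM + 1) difference, which understates the change of low genes, was 0.52 (SE 0.101, limma adjusted p = 3.43e-04), or 0.91 and 0.18 with pseudocounts of 0.1 and 5. The gene reached the minimum of 1 CPM only through the AIL libraries, so its difference and adjusted p are a description only.

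Several of these contrasts lie between closely related genes, and the ratio of paralogues within a library is free of any scaling between libraries. Of 15 pairs, 13 had both genes among the members, and in 7 the ratios did not overlap between groups. The share for other pairs of genes was not computed. Of single tested genes, 60.1% did not overlap, so the count by itself does not set these pairs apart. The ratio of DYNLL1 to DYNLL2 was 6.16, 6.31 and 6.13 under DMSO and 8.35, 8.14 and 7.76 under AIL. The ratio of DYNLT1 to DYNLT3 fell from 1.55 ± 0.0469 to 1.17 ± 0.0347, that of KIF2C to KIF2A from 1.87 ± 0.0205 to 1.46 ± 0.0105 and that of KIF5B to KIF5C from 45.7 ± 1.94 to 37.9 ± 2.60 (SD, n = 3). The ratio of KIF3A to KIF3B was 0.313 ± 0.0125 and 0.265 ± 0.00695, that of KLC4 to KLC2 0.265 ± 0.0131 and 0.217 ± 0.0140, and that of KIF13A to KIF13B 3.37 ± 0.133 and 3.90 ± 0.139. Each of the 7 had a two-sided exact permutation p of 0.1, the smallest that 3 against 3 libraries allow, and an adjusted p of 0.186 over the 13 pairs, so none could pass 0.05. Ratios overlapped for KIF18A to KIF18B, KIF20A to KIF20B, KIF1B to KIF1C, DYNC1LI1 to DYNC1LI2, KIFC2 to KIFC3 and KLC1 to KLC2.

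**Figure D5:**
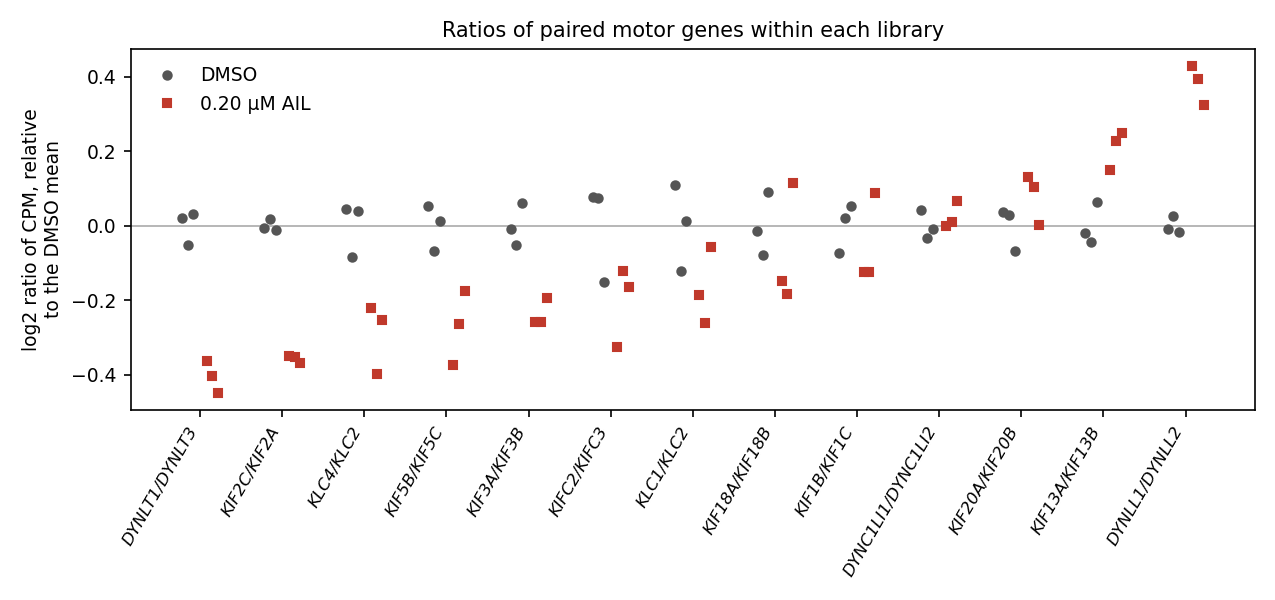
Log2 ratio of CPM between 2 related motor genes in each library, relative to the mean of the DMSO libraries (circles, DMSO; squares, AIL). The AIL and DMSO points are apart for 7 of the 13 pairs, with DYNLT1 to DYNLT3 lowest and DYNLL1 to DYNLL2 highest.

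Adaptors and regulators of the transport motors, 32 of 35 of which were tested, had 5 higher, 8 lower and 19 not called (median log2 difference -0.02). The share higher was 15.6%, below the 28.2% of all tested genes, and the share lower was 25.0%, close to their 25.9%. The 4 smallest p-values belonged to NIN, a centrosomal dynein activator (168 ± 4.74 to 153 ± 0.812 CPM), SPAG9, the scaffold JIP4 (256 ± 4.21 to 278 ± 4.199 CPM), TRAK2, which ties mitochondria to kinesin-1 (84.4 ± 3.17 to 75.4 ± 1.82 CPM), and CAPZA1, a capping subunit that dynactin contains (416 ± 7.99 to 447 ± 12.0 CPM; SD, n = 3). ACTR1A, the actin-related protein that forms the dynactin filament, was at 178 CPM in both groups (log2 difference -0.00, limma adjusted p = 0.946), while 4 of the 6 DCTN genes rose. It was named after its values were seen.

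The fall of the mitotic kinesins was called for all 12 genes with every alternative and without any 1 library (highest limma adjusted p = 0.00624). Counts of transport motors were less fixed: without DMSO replicate 2, 5 rather than 8 were lower.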

How the data were processed

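RNA-seq of total RNA (TRIzol, TruSeq, per the labels' protocols) was taken from 6 Saos-2 libraries, grouped by sample title. The authors deposited TMM-normalised CPM, printed to 2 decimals; RSEM and edgeR 3.8.5 are named in the submitters' processing notes without a role. For the aligner, genome build, annotation and strand setting, nothing is given in the sources used here. Of values up to 2000 reads, 99.95 to 99.98% per library lay within 0.2 reads of a whole multiple of 1 read, rounding included; this gave the depths, but no count test was run on rounded CPM, and log2(CPM + 1) was fitted with limma 3.58.1 in R 4.3.3 (empirical Bayes with intensity trend, two-sided, Benjamini-Hochberg over 11069 genes whose mean reached 1 CPM); the fit was tested on simulated data. The labels call the libraries biological replicates and do not say how cultures were separated, so p-values measure only the spread between these samples.

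The members and lists were chosen with earlier results of these data known. All 6 values are given for up to 4 called members of each role list with the largest absolute log2 difference, and means for up to 4 genes with the smallest p of the adaptor and partner lists; other members are given by their values in brief. DMSO and AIL libraries of the same number deviated together (Pearson r of gene deviations 0.159, 0.133 and 0.129), so the numbers may pair the libraries, though no label says so. The main fit, with its standard errors, p-values and calls, left this pairing out. Of the alternative fits, only the replicate block used it. Paralogue ratios were tested by exact permutation over the 6 libraries, also unpaired. Transcripts of GENCODE 29 were searched for 50-base words shared between genes, and RefSeq promoters were matched by symbol. Alternatives were other pseudocounts, filters, scalings, no trend, the replicate block and leaving out each library.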

Additional observations from a re-analysis of the deposited data

How the results depend on the processing

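All 12 mitotic kinesins were lower with each of the 14 alternatives, and their median log2 difference was -0.28 with quantile normalization and -0.32 to -0.30 when 1 library was left out (the cause was not tested). Over the leave-one-out fits, 14 to 18 members were higher and 18 to 20 lower, and 12 to 15 transport motors were higher and 5 to 7 lower. Without DMSO replicate 2 the count of lower transport motors was 5, since KLC4, KLC1 and KIF1B did not pass; fewer samples entered that fit. With the replicate block, 20 members were higher and 21 lower, 15 and 8 among transport motors, and DYNLT3 was the only member whose call changed with it (limma adjusted p = 0.0476). Of the 40 called members, 9 lost their call in at least 1 alternative (DCTN6, DYNC1I2, DYNC2LI1, KIF13A, KIF1B, KIF27, KIF7, KLC1 and KLC4) and 0 changed sign. Of the 11 not called, 5 passed in at least 1 alternative: KIF13B and KIF5B with quantile normalization (limma adjusted p = 0.0377 and 0.0282), DCTN3 and KLC2 without AIL replicate 3 (0.0344 and 0.0152), and DYNLT3 with the block or without AIL replicate 2 (0.0242). Another 3 changed sign when 1 library was left out: KIF9 ranged from -0.0815 to 0.0549, KIF1C from -0.0727 to 0.00140 and KIF3A from -0.0600 to 0.00899 (the cause was not tested). The median of all genes was 0.01 with TMM, -0.00 with median-of-ratios and -0.01 with quantile scaling. Depth limits KIF26B most, at 22 to 58 reads per library.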
